A study of Mus musculus with 6 samples.

Results

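The genes of the major histocompatibility complex (MHC) and of antigen presentation were described in mouse dorsal root ganglia, which hold the cell bodies of the sensory neurons of trunk and limbs. Members were the rows of the deposited gene table whose symbol begins with H2-, the prefix of the mouse MHC, together with B2m, Tap1, Tap2, Tapbp, Psmb8, Psmb9, Psmb10, Psme1, Psme2, Cd74, Ciita and Nlrc5. These are 43 of 22087 genes. Of them 2 encode classical class I heavy chains, 18 carry non-classical class I symbols, 9 are class II genes, 9 are accessory genes of class I presentation, 1 is the class II chaperone Cd74 and 2 are transactivators. H2-K2, annotated as a transcribed pseudogene, and H2-Ke6, which encodes a steroid dehydrogenase, share the prefix and were set apart from these classes. Classes were assigned by symbol, so the pseudogenes H2-T-ps and H2-M6-ps stayed among the non-classical symbols. In all, 36 members lie on chromosome 17.

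MHC class I molecules are carried by nearly all nucleated cells and show peptides made in the cytosol to CD8 T cells. The peptides are cut by the proteasome, pumped into the endoplasmic reticulum by the TAP transporter and loaded onto a heavy chain paired with beta-2-microglobulin. Non-classical class I molecules resemble the classical ones but are less variable, and several are read by natural killer cells or by unconventional T cells. Class II molecules are made mainly by B cells, dendritic cells and macrophages and show peptides from the endosome to CD4 T cells. Interferons raise both classes, and in healthy ganglia neurons are known for low class I levels.

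Poly(A) RNA of ganglia from mice at 3 months of age was sequenced in 6 libraries. The 3 control libraries are of genotype Kif2a fl/fl, with loxP-flanked alleles of the kinesin gene Kif2a and no Cre named in the label. The 3 conditional knockout (cKO) libraries are of genotype Kif2a fl/fl; Avil Cre, in which Cre is driven from the advillin gene in sensory neurons, so glia, immune and connective tissue cells of the ganglion are not the intended target. Sex, strain and the number of animals per library are not in the labels, so the p-values reflect library-to-library spread, part of which may be technical.

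The libraries held from 21683083 to 31626625 counts. Values are normalised read counts (CPM) on library totals scaled by the trimmed mean of M values (TMM), where 1 count was worth 0.0323 to 0.0458 CPM, and replicates are given in the order 1, 2, 3. Kif2a was at 86.4, 80.4 and 89.999 CPM in control and at 69.8, 66.5 and 67.4 CPM in cKO. Its groups did not overlap, at -0.33 ± 0.10 (SE) on the log2 scale, and the edgeR adjusted p was 0.9999. The members took 0.132%, 0.156% and 0.135% of all counts in control and 0.265%, 0.104% and 0.222% in cKO. The widest exact 95% binomial interval among these shares ran from 0.263% to 0.267% and covers counting error only. Thus cKO replicates 1 and 3 stood above every control library and cKO replicate 2 below every one.

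Class I promoters carry a compact block of binding sites that textbooks describe as the enhancer read by NF-kappaB, the interferon-stimulated response element and the S-X-Y module through which NLRC5 or CIITA act. The windows below, from RefSeq on GRCm38.p6, are shown for the classical heavy chains, for H2-Q6 and H2-Q7 among the non-classical genes, for B2m and for a pair of class II chains, so that the classes can be compared. They run 5′ to 3′ on the gene's strand, from 10 bases before the first to 10 bases after the last motif and ending at RefSeq's annotated start at the latest. Capitals mark matches, on either strand, to a kappaB motif (GGGGATTCCC or GGAAAGTCCC), an interferon response motif (GAA or GAAA, then 2 bases of any kind, then GAAA), an X2 motif (TGACG, which overlaps itself on the other strand in H2-Aa) and a Y motif (GATTGG). The motif letters were chosen after these promoters had been read, and those of the kappaB motif were copied from the H2-K1 and B2m windows, which therefore hold it by construction.
H2-K1: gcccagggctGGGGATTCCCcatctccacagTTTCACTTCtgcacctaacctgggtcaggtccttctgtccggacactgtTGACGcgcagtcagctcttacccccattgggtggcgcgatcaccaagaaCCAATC
H2-D1: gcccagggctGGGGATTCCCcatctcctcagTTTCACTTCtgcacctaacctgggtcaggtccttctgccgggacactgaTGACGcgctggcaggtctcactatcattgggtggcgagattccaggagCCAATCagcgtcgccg
H2-Q6: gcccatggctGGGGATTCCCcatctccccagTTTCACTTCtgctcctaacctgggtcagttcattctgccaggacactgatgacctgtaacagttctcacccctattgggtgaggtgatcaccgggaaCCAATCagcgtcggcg
H2-Q7: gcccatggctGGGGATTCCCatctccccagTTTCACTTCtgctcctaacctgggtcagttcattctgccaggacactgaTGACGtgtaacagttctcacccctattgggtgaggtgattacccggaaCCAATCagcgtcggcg
B2m: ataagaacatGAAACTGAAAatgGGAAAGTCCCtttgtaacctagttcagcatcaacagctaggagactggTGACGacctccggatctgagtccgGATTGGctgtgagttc
H2-Aa: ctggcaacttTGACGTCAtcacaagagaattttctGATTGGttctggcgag
H2-Eb1: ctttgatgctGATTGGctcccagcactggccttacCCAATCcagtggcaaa

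These windows lie at chr17:34000334-34000468 (minus strand) for H2-K1, chr17:35262913-35263056 for H2-D1, chr17:35424667-35424810 for H2-Q6, chr17:35439012-35439154 for H2-Q7 and chr2:122147538-122147648 for B2m, the last 4 on the plus strand. Those of the class II genes lie at chr17:34287857-34287907 (minus strand) for H2-Aa and chr17:34305797-34305847 (plus strand) for H2-Eb1. H2-Q6 and H2-Q7 were identical at 97.2% of 144 alignment columns, gaps counted, and H2-K1 and H2-D1 at 82.1% of 145. The H2-K1 window ends at the annotated start, at 135 bases, while that of H2-D1 runs 10 bases past its last motif. The cut adds gaps that lower the second value, so the 2 values cannot be compared directly. The 4 class I genes and B2m all hold matches to the kappaB, interferon response and Y motif letters, and H2-Q6 alone of the 5 has no TGACG. In H2-K1, H2-D1 and H2-Q7 the marked Y match lies farther past TGACG than in B2m and H2-Aa. All 4 class I windows also hold the letters attggg, unmarked, before that match. Which stretch is the Y of the S-X-Y module was not tested, so a Y match here means the letters GATTGG only. Among 32851 windows of the same length in the reference, from 250 bases before to 50 after a start, 5 hold all 4 kinds of motif, and they belong to H2-K1, with 2 annotated starts, H2-D1, H2-Q7 and B2m. The kappaB motif is in 0.262% of all windows, the interferon response motif in 10.4%, TGACG in 20.8% and GATTGG in 16.1%. A window was listed for 32 of 43 members, and a gene with several windows was counted where any of them holds the motif. GATTGG is in a window of 8 of 8 class II genes, and the interferon response motif in 8 of 13 non-classical and 0 of 8 class II genes. The kappaB motif is in only 2 of 13 non-classical genes, H2-Q6 and H2-Q7, and all 4 kinds are in 1 of 13. The 2 non-classical windows shown are therefore not typical of their class. A match describes letters only and shows no binding.

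Of the 43 members 37 passed the count filter and were tested. Of these 34 were higher and 3 lower in cKO, where 51.6% of all 17759 tested genes were higher. Their median log2 fold change was 0.45, beside 0.01 over all tested genes. No member passed the edgeR quasi-likelihood test at an adjusted p under 0.05: 0 of 37, beside 0.0225% of all genes. At an unadjusted p under 0.05 edgeR counted 1 member, H2-M11, which was higher. Over all genes 4.67% had such a p, and 1.58% had it and were higher. DESeq2 called 0 members, beside 0.17% of all genes. It gave an unadjusted p under 0.05 to 4 of 37 members, H2-Q4, H2-Q6, H2-Q7 and Nlrc5, beside 725 of 17759 tested genes. The smallest DESeq2 adjusted p was 0.553, for H2-Q7. Every tested member had an edgeR adjusted p of 0.9999. The groups did not overlap for 1 member, or 2.70%, beside 8.66% of all genes, and this member was higher, beside 3.96%.

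**Figure D1:**
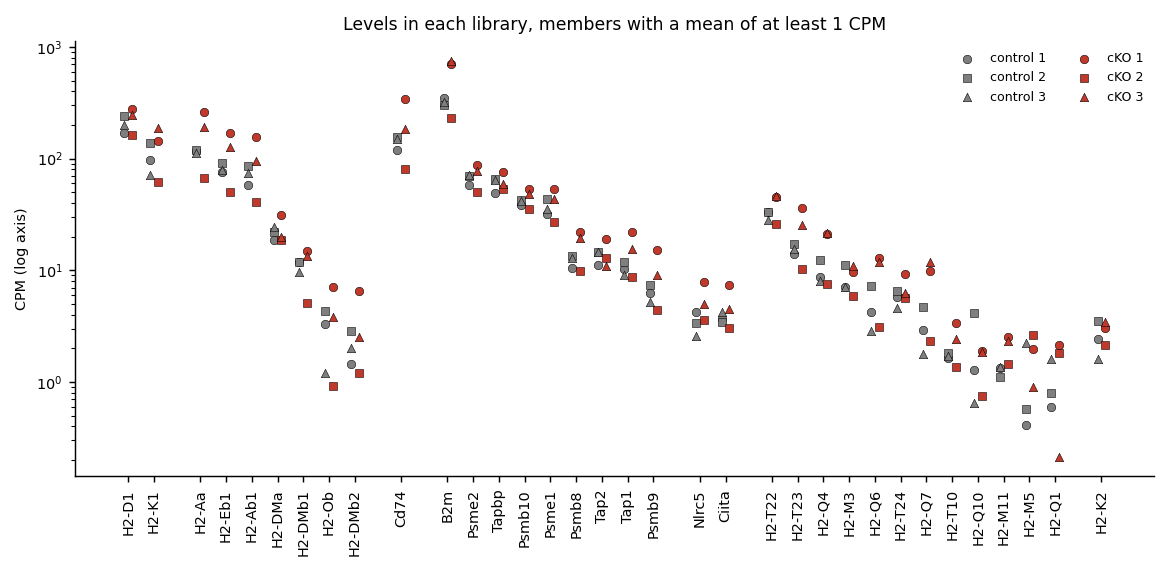
Level of each member with a mean of at least 1 CPM in each of the 6 libraries, on a log CPM axis, with control (Kif2a fl/fl) in grey and cKO (Kif2a fl/fl; Avil Cre) in red and the marker shape giving the replicate. For B2m the red circle and triangle at 699 and 755 CPM lie above the control points and the red square at 232 CPM lies below them.

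Both classical class I heavy chains were above every control library in cKO replicates 1 and 3 and below every one in cKO replicate 2, so the groups overlapped. H2-D1, on the plus strand of chromosome 17 from 35262730 to 35267499 (GRCm38), stood at 168, 241 and 201 CPM in control and at 279.5, 161 and 245 CPM in cKO. H2-K1, on the minus strand of chromosome 17 from 33996017 to 34000347, stood at 97.7, 137 and 71.5 CPM in control and at 144, 62.1 and 189 CPM in cKO. The highest library was cKO replicate 1 for H2-D1 and cKO replicate 3 for H2-K1. Group means were 204 ± 36.7 and 229 ± 60.8 CPM (SD, n = 3) for H2-D1, and the log2 fold change was 0.17 ± 0.22 (SE). For H2-K1 they were 102 ± 32.8 and 132 ± 64.4 CPM (SD, n = 3), and the log2 fold change was 0.37 ± 0.43 (SE). Without cKO replicate 1 the H2-D1 value was 0.01, and without cKO replicate 3 that of H2-K1 was 0.02.

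The heavy chains did not keep a fixed ratio to each other. H2-K1 stood at 0.581, 0.566 and 0.356 times the CPM of H2-D1 in control and at 0.514, 0.385 and 0.772 times in cKO, so that the ratio spanned 2.17-fold over the libraries. Both groups held libraries with a low and a high ratio. The sequences of class I genes are partly shared: 9.63% of the 50-base stretches of H2-K1 transcripts and 12.8% of those of H2-D1 also occur in transcripts of another gene, most often H2-Q10 for the first and H2-Q1 for the second. How the authors counted reads that fit several genes is not given in the sources used here, so class I counts are uncertain to that extent.

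B2m, which encodes the light chain beta-2-microglobulin that every class I heavy chain needs, had the highest CPM of the members. On chromosome 2 at 122147686 to 122153083, it was at 348, 304 and 318 CPM in control and at 699, 232 and 755 CPM in cKO. The control libraries lay within 1.15-fold of each other, while the cKO libraries fell on both sides of them, cKO replicates 1 and 3 above every control library and replicate 2 below every one. Group means were 323 ± 22.7 and 562 ± 287 CPM (SD, n = 3), and the log2 fold change was 0.80 ± 0.41 (SE). The unadjusted edgeR p was 0.0945. The exact two-sided permutation p was 0.4, where 3 against 3 libraries cannot give less than 0.1. Without cKO replicate 2, its lowest library, B2m passed over all genes at 1.17 on the log2 scale (edgeR adjusted p 0.0323), beside 0.0717% of all genes. That library was singled out after the values were seen, and leaving it out raises the fold change by construction, so this is no test of genotype. Without cKO replicate 3 B2m was at 0.53. Its transcripts share no 50-base stretch with another annotated gene.

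Per kilobase of exon, B2m was at 376 CPM in control, H2-D1 at 78.9 and H2-K1 at 34.7, in that order in every library. In cKO these levels were 654, 88.7 and 44.8 CPM per kilobase. The excess of B2m over the heavy chains differed between libraries. H2-D1 had 0.483, 0.795 and 0.632 times the CPM of B2m in control and 0.400, 0.696 and 0.325 times in cKO. The 2 lowest of these ratios were in cKO replicates 1 and 3, where B2m was highest.

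Of the 9 accessory genes of class I presentation all 9 were higher on the log2 scale, their median log2 fold change was 0.16, and none passed the test. B2m aside, the immunoproteasome subunits Psmb8 and Psmb9 and the transporter subunit Tap1 had the larger differences. The immunoproteasome is the form of the proteasome that interferon-gamma induces, with Psmb8, Psmb9 and Psmb10 in place of the constitutive catalytic subunits Psmb5, Psmb6 and Psmb7. Psmb9 was at 6.25, 7.37 and 5.24 CPM in control and at 15.2, 4.43 and 9.16 CPM in cKO, a log2 fold change of 0.61 ± 0.40 (SE). Psmb8 was at 10.6, 13.3 and 13.0 CPM in control and at 22.04, 9.80 and 19.3 CPM in cKO, at 0.47 ± 0.28. In both genes cKO replicates 1 and 3 were above every control library and replicate 2 below every one. Psmb10 was at 38.4, 42.4 and 41.7 CPM in control and at 53.7, 35.0 and 48.6 CPM in cKO, with the smaller log2 fold change of 0.16 ± 0.16.

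Set against its constitutive counterpart, Psmb9 stood at 0.0244, 0.0319 and 0.0209 times the CPM of Psmb6 in control and at 0.0613, 0.0218 and 0.0310 times in cKO. Psmb8 stood at 0.178, 0.250 and 0.220 times Psmb5 in control and at 0.406, 0.194 and 0.301 times in cKO. Psmb10 stood at 0.178, 0.255 and 0.219 times Psmb7 in control and at 0.298, 0.230 and 0.208 times in cKO. All 3 ratios were highest in cKO replicate 1 and lay within the control range in cKO replicate 2. In cKO replicate 3 the ratio of Psmb8 lay above the control range and those of Psmb9 and Psmb10 within it. Over the constitutive proteasome list as a whole, 11 of 16 tested genes were higher and 5 lower, at a median of 0.02 on the log2 scale with no gene past the test. Its summed level ranged from 85.6% to 115% of the control mean over the 6 libraries.

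Tap1 and Tap2, the subunits of the peptide transporter, did not follow each other. Tap1 was at 10.2, 11.8 and 9.11 CPM in control and at 21.9, 8.69 and 15.4 CPM in cKO, a log2 fold change of 0.56 ± 0.30 (SE). Tap2 was at 11.03, 14.7 and 14.6 CPM in control and at 19.0, 13.0 and 10.9 CPM in cKO, at 0.09 ± 0.22. In cKO replicate 3 Tap1 stood above every control library and Tap2 below every one, and the ratio of Tap1 to Tap2 there, 1.42, was the highest of the 6. Tap1 and Psmb9 are divergent neighbours whose annotated exons overlap by 212 bases on opposite strands, and reads from that stretch cannot be told apart if counting did not use strand. Tapbp, the tapasin that bridges the transporter and the heavy chain, was at 0.06 ± 0.16, and the proteasome activator subunits Psme1 and Psme2 were at 0.16 ± 0.24 and 0.10 ± 0.19 on the log2 scale. Tapbp ranged from 49.2 to 75.3 CPM over the 6 libraries, Psme1 from 26.8 to 53.6 CPM and Psme2 from 50.6 to 86.8 CPM, each highest in cKO replicate 1. Of the Psme2 50-base stretches 28.3% also occur in Psme2b.

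**Figure D2:**
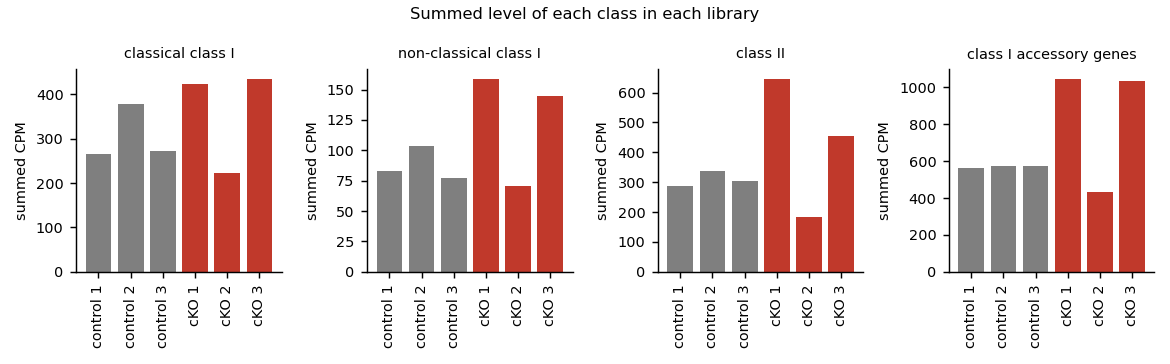
Summed CPM of the members of each class in each library, with control in grey and cKO in red and 1 bar per library. In each of the 4 classes cKO replicates 1 and 3 have the 2 highest bars and cKO replicate 2 the lowest, for class II at 646, 454 and 185 CPM.

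Of the 18 non-classical class I genes 14 were tested. Of these 12 were higher and 2 lower, and the median log2 fold change was 0.54. Their levels were mostly low. H2-T22, a ligand of gamma-delta T cells, was at 33.5, 32.9 and 28.2 CPM in control and at 45.4, 25.8 and 46.0 CPM in cKO, a log2 fold change of 0.31 ± 0.21 (SE). H2-T23, which encodes Qa-1, a ligand of the NKG2A receptor of natural killer cells, was at 14.0, 17.2 and 15.4 CPM in control and at 35.7, 10.3 and 25.6 CPM in cKO, at 0.62 ± 0.41. In these 2 genes cKO replicates 1 and 3 were again above every control library and replicate 2 below every one. Of the H2-T22 stretches of 50 bases 34.5% also occur in another gene, most often H2-T10, which was at 1.64, 1.80 and 1.71 CPM in control and 3.35, 1.37 and 2.44 CPM in cKO.

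H2-Q4, H2-Q6 and H2-Q7, of the Q cluster of the MHC, had the 3 largest edgeR log2 fold changes among the 14 tested genes of the class. Qa-2 is a class I molecule anchored to the membrane by a lipid, and H2-Q7 is among the closely related genes that encode it. H2-Q7 (chromosome 17, 35439155 to 35443773) was at 2.92, 4.65 and 1.78 CPM in control and at 9.76, 2.32 and 11.8 CPM in cKO, a log2 fold change of 1.36 ± 0.62 (SE). H2-Q6 (chromosome 17, 35424850 to 35430055) was at 4.19, 7.20 and 2.88 CPM in control and at 12.9, 3.10 and 11.9 CPM in cKO, at 0.97 ± 0.57. H2-Q4 was at 8.75, 12.4 and 7.98 CPM in control and at 21.3, 7.57 and 21.5 CPM in cKO, at 0.79 ± 0.39. For all 3 genes cKO replicates 1 and 3 were each above every control library, and cKO replicate 2 was below control replicates 1 and 2. With 26.4% of the H2-Q7 and 32.0% of the H2-Q6 stretches of 50 bases shared with another gene, their single values are uncertain. The unadjusted DESeq2 p was 0.00549 for H2-Q7, 0.0321 for H2-Q6 and 0.0207 for H2-Q4. In the authors' deposited table H2-Q7 had a log2 fold change of 1.35 and a false discovery rate from fdrtool of 0.0276, and it was the 1 member marked there for passing both that rate and a fold of 1.5, beside 0.656% of all genes.

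H2-M11 was the 1 member whose groups did not overlap. At 1.32, 1.10 and 1.36 CPM in control and 2.52, 1.45 and 2.31 CPM in cKO, it differed by 0.73 ± 0.30 (SE) on the log2 scale. Its unadjusted edgeR p was 0.0383, and its exact permutation p was 0.1, the smallest this design gives. It had between 25 and 55 counts per library and shares no 50-base stretch with another gene. H2-T24 was at 5.79, 6.58 and 4.59 CPM in control and at 9.30, 5.63 and 6.29 CPM in cKO, and its log2 fold change of 0.32 ± 0.25 was smaller. So was that of H2-M3, which presents formylated peptides of bacteria, at 0.06 ± 0.28. H2-M3 was at 7.07, 11.1 and 7.01 CPM in control and at 9.58, 5.87 and 10.9 CPM in cKO, with control replicate 2 as the highest library. H2-Q10, known as a secreted class I molecule of the liver, was highest in control replicate 2 too, at 4.13 CPM beside 0.646 to 1.88 CPM in the other 5 libraries, and its value of -0.43 ± 0.68 turned to 0.65 without that library.

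H2-M5 and H2-Q1 had another order of libraries. H2-M5 was at 0.410, 0.571 and 2.23 CPM in control and at 1.97, 2.61 and 0.899 CPM in cKO. H2-Q1 was at 0.593, 0.790 and 1.62 CPM in control and at 2.15, 1.82 and 0.214 CPM in cKO. In both, control replicate 3 and cKO replicates 1 and 2 were the 3 highest libraries, and cKO replicate 3, high for most members, was below them. The raw counts were 9, 13, 69, 43, 63 and 21 for H2-M5 and 13, 18, 50, 47, 44 and 5 for H2-Q1, controls first. H2-Q2, the next member after H2-Q1 on chromosome 17 and not tested, had the same 3 libraries on top with 12, 7 and 6 counts, beside 2, 2 and 1 in the others. These 3 genes were singled out after their values were seen. H2-M5 shares 0.886% of its 50-base stretches with other genes and H2-Q1 15.0%. The H2-M5 fold change ranged from 0.35 to 1.89 on the log2 scale with 1 library left out, the highest without control replicate 3.

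The remaining non-classical genes had few counts. H2-M10.2 was at -0.68 ± 0.40 and H2-Q5, a pseudogene in some strains, at 0.66 ± 0.71, from 10 to 29 and 5 to 38 counts per library. H2-M2, H2-T-ps and H2-M6-ps, which were not tested, had from 1 to 10 counts in each library. Of the 2 other H2 symbols, H2-K2 was at 0.20 ± 0.33 on the log2 scale, from 1.62 to 3.51 CPM, and H2-Ke6 had 4 to 11 counts per library.

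**Figure D3:**
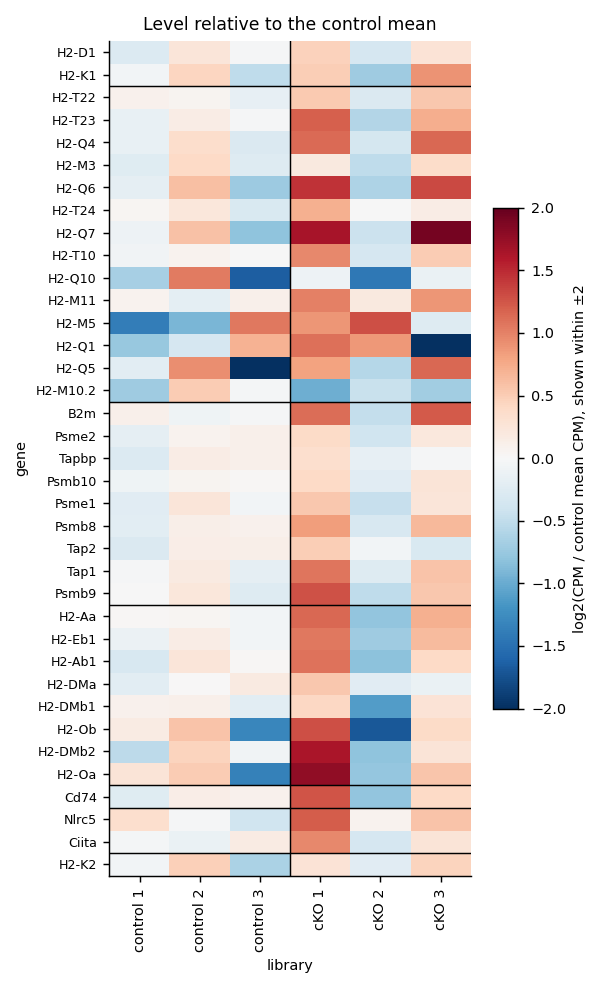
Level of each tested member in each library as log2 of its CPM over the mean CPM of control, in colours limited to 2 either way, with horizontal lines between the classes and a vertical line between control and cKO. Most rows are red in cKO replicates 1 and 3 and blue in cKO replicate 2, whereas H2-M5 and H2-Q1 are red in control replicate 3 and cKO replicates 1 and 2.

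Of the classes with several genes, class II differed most between cKO libraries. H2-Aa and H2-Ab1 encode the chains of the peptide-presenting I-A molecule, and H2-Eb1 encodes the beta chain of I-E. H2-Aa, on the minus strand of chromosome 17 from 34282744 to 34287823, stood at 118, 119 and 112 CPM in control and at 259, 67.5 and 191 CPM in cKO, with group means of 116 ± 3.997 and 173 ± 97.1 CPM (SD, n = 3). Its log2 fold change was 0.57 ± 0.45 (SE). H2-Eb1 was at 75.6, 91.4 and 79.3 CPM in control and at 170.2, 50.4 and 127 CPM in cKO, at 0.50 ± 0.41. H2-Ab1 was at 58.1, 85.5 and 74.1 CPM in control and at 155, 41.1 and 95.7 CPM in cKO, at 0.42 ± 0.46. In all 3 genes every control library lay between cKO replicate 2 and cKO replicate 3, and cKO replicate 1 was the highest. Cd74, the invariant chain that guides class II molecules to the endosome, was at 120.2, 155 and 149 CPM in control and at 339, 81.5 and 186 CPM in cKO, at 0.51 ± 0.48, with the same order of cKO libraries. From cKO replicate 2 to cKO replicate 1 Cd74 differed 4.16-fold and the summed class II genes 3.49-fold, beside 1.29-fold and 1.18-fold between the lowest and highest control library.

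Over this range of levels, the main class II genes kept narrower proportions to each other within a library. H2-Eb1 was between 0.641 and 0.767 times the CPM of H2-Aa in the 6 libraries, a span of 1.20-fold. Cd74 was between 0.971 and 1.34 times and H2-Ab1 between 0.493 and 0.718 times the CPM of H2-Aa. Per kilobase of exon Cd74 was at 84.2 CPM in control, H2-Eb1 at 42.2, H2-Aa at 30.6 and H2-Ab1 at 28.3. In cKO the order was the same, at 120.3, 59.5, 45.4 and 37.8 CPM per kilobase.

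The peptide-editing class II genes followed less evenly. H2-DMa and H2-DMb1 encode chains of the DM molecule, which exchanges peptides on class II in the endosome. H2-DMa was at 18.8, 21.9 and 24.5 CPM in control and at 31.5, 18.5 and 19.7 CPM in cKO, a log2 fold change of 0.09 ± 0.21 (SE), so that cKO replicate 3 stayed within the control range where H2-Aa was at 191 CPM. Relative to H2-Aa, H2-DMa ranged from 0.103 to 0.274. H2-DMb1 was at 11.8, 11.8 and 9.60 CPM in control and at 14.8, 5.09 and 13.3 CPM in cKO, with a log2 fold change of -0.0024 whose sign turned under 2 other scalings. H2-DMb2 was at 1.46, 2.85 and 2.004 CPM in control and at 6.51, 1.20 and 2.53 CPM in cKO, and 24.8% of its 50-base stretches are shared, mostly with H2-DMb1.

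H2-Oa and H2-Ob encode the DO molecule, an inhibitor of DM found mainly in B cells. H2-Ob was at 3.28, 4.34 and 1.20 CPM in control and at 7.15, 0.910 and 3.85 CPM in cKO, a log2 fold change of 0.44 ± 0.75 (SE). H2-Oa, at a mean under 1 CPM, had 13, 16 and 6 counts in control and 37, 7 and 17 counts in cKO, with a log2 fold change of 0.89 ± 0.68. For both, cKO replicate 1 was the highest library, and control replicate 3 and cKO replicate 2 were the 2 lowest. H2-Eb2 had between 1 and 9 counts per library and was not tested.

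The transactivators stood at a few CPM. Ciita, the master regulator of class II genes, was at 3.69, 3.47 and 4.23 CPM in control and at 7.42, 3.02 and 4.54 CPM in cKO, a log2 fold change of 0.39 ± 0.32 (SE). Nlrc5, its counterpart for class I genes, was at 4.24, 3.34 and 2.55 CPM in control and at 7.84, 3.56 and 5.01 CPM in cKO, at 0.70 ± 0.32 on the log2 scale. Its unadjusted edgeR p was 0.0595. Both were highest in cKO replicate 1. Nlrc5 in cKO replicate 2 lay within the control range, and Ciita in that library was the lowest of the 6.

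**Figure D4:**
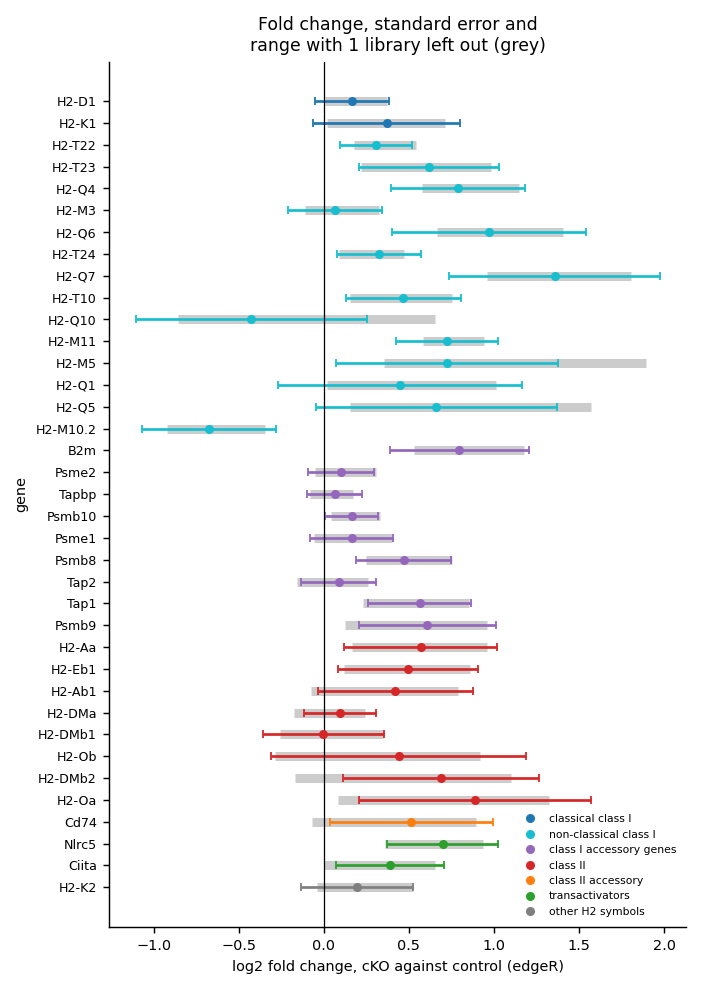
The edgeR log2 fold change of cKO against control for each tested member as a point with its standard error, coloured by class, and as a grey bar the range of the same value with 1 library left out in turn. The points of 34 of 37 genes lie to the right of 0, and the bars of, for example, H2-Ab1, Cd74, H2-DMb2 and H2-Ob reach to its left.

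Comparing the classes, the summed level of classical class I was at 87.0%, 124% and 89.2% of the control mean in the control libraries and at 139%, 73.1% and 142% in cKO. Non-classical class I was at 94.4%, 118% and 87.6% in control and at 180.3%, 80.3% and 164% in cKO. Class II was at 92.9%, 109% and 97.8% in control and at 209%, 59.8% and 147% in cKO. All 3 classes thus lay on the same side of control in each cKO library, with class II the farthest of the 3 from control in replicates 1 and 2. In replicate 3 classical class I, at 142%, and class II, at 147%, stood close together. The class I accessory genes were at 184%, 76.2% and 182% in cKO, and most of that sum was B2m. Without B2m the other 8 summed to 87.6%, 109% and 103% in control and to 141%, 82.0% and 115% in cKO. The median log2 fold changes were 0.27 for classical class I, 0.54 for non-classical class I and 0.47 for class II, from 2, 14 and 8 tested genes. Differences between classes were not tested.

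The order of the libraries was also counted. cKO replicate 1 was the highest and cKO replicate 2 the lowest of the 6 libraries in 18 of 37 tested members, or 48.6%, beside 11.4% of all tested genes. By class this held for 7 of 8 class II genes and for Cd74, for 6 of 9 class I accessory genes, for 1 of 2 classical class I genes and for 2 of 14 non-classical genes. This order was chosen after the values were seen and compares single libraries, not genotypes.

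The values were computed again without each of these 2 libraries. Without cKO replicate 1, 25 of 37 members were higher and 12 lower, beside 50.8% of all genes higher. No member had an unadjusted edgeR p under 0.05 in either direction, beside 2.63% of all genes higher and 5.41% lower, and none passed, beside 0.0552%. The median log2 fold change was then -0.12 for class II, 0.21 for non-classical class I, 0.16 for classical class I and 0.04 for the accessory genes. Of the 8 class II genes 5 were lower in that fit, among them H2-Ab1 at -0.08, and Cd74 was at -0.07. H2-Aa was then at 0.16, H2-Eb1 at 0.12 and H2-Oa at 0.08, and Ciita at 0.001 and Nlrc5 at 0.36. Of the class I accessory genes Psmb8 was at 0.25, Tap1 at 0.23, Psmb9 at 0.12 and Psmb10 at 0.04. Of the non-classical genes H2-T23 was at 0.22, H2-T10 at 0.16, H2-T24 at 0.09 and H2-Q1 at 0.02. Other libraries set the lowest value of H2-T22, 0.18 without cKO replicate 3, and of H2-Q5, 0.15 without control replicate 3. Without cKO replicate 2, 35 of 37 members were higher, beside 54.1% of all genes. Of these, 23 had an unadjusted edgeR p under 0.05, beside 4.28% of all genes, and 0 members were lower at that level, beside 7.17%. Only B2m passed over all genes, beside 0.0717%. Class II then had a median log2 fold change of 0.89, non-classical class I of 0.65 and classical class I of 0.54. cKO replicate 1 was the highest library in 26 of 37 tested members, beside 4225 of 17759 tested genes, and in 8 of 8 class II genes. Leaving it out therefore lowers their fold changes by construction. cKO replicate 2 was the lowest library in 23 of 37 tested members, beside 4365 of 17759 tested genes, so leaving it out raises theirs. Both libraries were singled out after the values were seen, so the counts and medians of these 2 fits and the B2m result are no test of genotype.

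Markers of several cell types differed between the same libraries as the members. The summed level of 5 B cell markers ranged from 23.3 to 42.6 CPM in control and was at 92.0, 13.1 and 52.0 CPM in cKO replicates 1 to 3, and 5 of 5 tested B cell markers were higher with none past the test. This put cKO replicates 1 and 3 above the control range and cKO replicate 2 below it. The sum of 8 macrophage markers ranged from 117 to 152 CPM in control and was at 229, 75.9 and 148 CPM in cKO, with 5 of 8 genes higher. Ptprc, which marks all leukocytes, was at 19.5, 34.7 and 17.7 CPM in control and at 37.5, 9.64 and 29.8 CPM in cKO. In each of these, cKO replicate 1 was the highest library and cKO replicate 2 the lowest, as for class II. The natural killer, fibroblast, satellite glia and myelinating Schwann cell lists, given below, had the same highest and lowest library.

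The T cell list summed to between 3.87 and 7.55 CPM in control and to 8.52, 4.80 and 9.12 CPM in cKO, with Cd8a at 0 in control replicate 1. Its cKO replicates 1 and 3 were thus above every control library. The natural killer list summed to between 2.60 and 5.13 CPM in control and to 5.64, 1.37 and 4.02 CPM in cKO. Over the dendritic cell list, at 34.4 to 41.1 CPM in control and 36.1 to 45.3 CPM in cKO, most counts came from Flt3 and Zbtb46, while the more specific Xcr1 and Clec9a stayed between 0.0827 and 2.52 CPM. No listed marker of these immune lists was at 0 in all libraries. The fibroblast list was at 193%, 49.8% and 94.0% of the control mean in cKO replicates 1 to 3 and the endothelial list at 146%, 91.6% and 107%. Satellite glia markers were at 119%, 83.5% and 112% and myelinating Schwann cell markers at 138%, 57.4% and 74.5%. Sensory neuron markers were lowest in cKO replicate 1, at 76.7%, 114% and 94.8%. They include Avil, the advillin gene from which Cre is driven, at 562, 593 and 592 CPM in control and at 239, 365 and 256 CPM in cKO. Spinal cord and brain markers were at 65.7%, 169% and 65.6% in control and at 68.6%, 21.8% and 23.6% in cKO. In whole ganglia, fewer cells of a type and less RNA per cell cannot be told apart, and the part of cell content in the MHC differences was not tested.

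**Figure D5:**
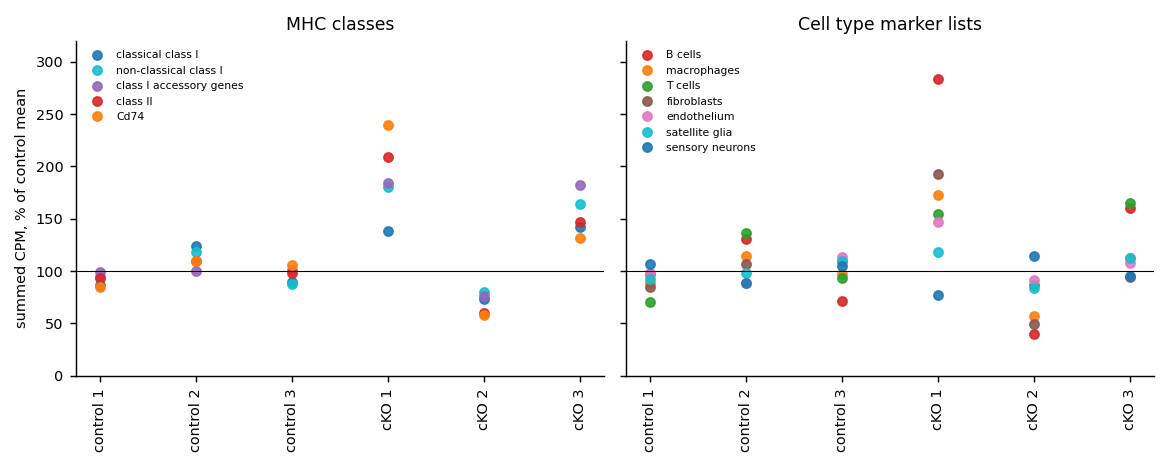
Summed CPM of MHC classes (left) and of cell type marker lists (right) in each library as a percentage of the mean of the 3 control libraries, which the line at 100 marks. In cKO replicate 1 B cell markers reach 283% and class II 209%, while sensory neuron markers are at 76.7%, and in cKO replicate 2 the same lists are at 40.3%, 59.8% and 114%.

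Other genes of the pathway were described by lists, with up to 4 genes of smallest p named from each. Peptide loading and trimming genes outside the member list were higher in 1 of 8 and lower in 7. Their median log2 fold change was -0.07, 0 passed the test, and their summed level stayed between 89.4% and 108% of the control mean. Erap1, a peptide-trimming enzyme and the 1 that was higher, was at 22.2, 22.1 and 21.8 CPM in control and at 27.7, 19.0 and 24.2 CPM in cKO. The chaperones Calr at -0.19, Pdia3 at -0.14 and Canx at -0.09 on the log2 scale had groups that did not overlap, as had 8.66% of all tested genes. Their unadjusted edgeR p was 0.156, 0.240 and 0.446.

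The class II processing list was higher in 7 of 9 genes, with a median of 0.14 and 0 past the test. Its protease Ctss, which cuts the invariant chain, was at 20.1, 29.7 and 22.6 CPM in control and at 49.2, 16.1 and 38.9 CPM in cKO. Thus Ctss had the order of H2-Aa, cKO replicates 1 and 3 above every control library and replicate 2 below. Another cathepsin, Ctsl, was at 657, 677 and 839 CPM in control and at 587, 573 and 643 CPM in cKO, without overlap (unadjusted edgeR p 0.0904). The costimulatory genes Cd80 and Cd86 were at 0.33 and 0.38 on the log2 scale. Of the class I-like genes outside the MHC 5 of 6 tested were higher and 0 passed. Procr, the endothelial protein C receptor, was at 4.47, 4.21 and 5.43 CPM in control and at 8.89, 5.54 and 5.82 CPM in cKO, without overlap (unadjusted edgeR p 0.0592). Mr1 and Cd1d1, which present metabolites and lipids, were at 0.20 and 0.15, and Ulbp1 at -0.35.

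Regulators that act on MHC promoters were measured as well. The list of promoter-binding and interferon signalling genes was higher in 12 of 19 tested, at a median of 0.12 on the log2 scale with 0 past the test. Irf9, a part of the interferon-activated factor ISGF3, was at 21.97, 24.6 and 22.8 CPM in control and at 35.2, 22.8 and 31.0 CPM in cKO, 0.36 ± 0.16 (SE) on the log2 scale. As for B2m, cKO replicates 1 and 3 were above every control library, but cKO replicate 2 lay within the control range. Stat2, another part of ISGF3, was at 0.18 ± 0.12 and the Y box subunit Nfyc at 0.23 ± 0.13. Stat3 was at -0.31 ± 0.16.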

How the data were processed

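RNA-seq libraries of mouse dorsal root ganglia were grouped by their titles, 3 control and 3 cKO. The raw counts per gene symbol were deposited by the authors. Of the processing, mm10 and the tools STAR, cutadapt and DESeq2 appear in the submitters' processing notes, whereas versions, read counter and use of strand are not known from the labels. The deposited normalized signal, regularized log2 values, log2 fold changes, p-values and fdrtool rates are the authors' own and were used only where quoted for H2-Q7.

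Genes were tested in R 4.3.3 with edgeR 4.0.16 (filterByExpr with a minimum count of 10, TMM, quasi-likelihood F test with robust dispersions, no covariate). P-values were Benjamini-Hochberg adjusted over 17759 genes, and passing means an adjusted p under 0.05. Standard errors come from the F statistic. Permutation tests were exact and two-sided on log2(CPM + 1). Alternatives used DESeq2 1.42.0, limma 3.58.1, other scalings and filters, a replicate block and each library left out. Pairwise comparison of counts within each group found no library deposited more than once. Positions, exon lengths and shared 50-base stretches come from GENCODE M21 (GRCm38, mm10), and promoter windows from RefSeq (GRCm38.p6). The members and gene lists were chosen with earlier results of these data known. Members with a mean of at least 1 CPM are named with values or their range in CPM, and the others by counts.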

Additional observations from a re-analysis of the deposited data

How the results depend on the processing

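The medians of the 4 classes kept their sign under DESeq2, limma, 2 other scalings, 2 other filters and the replicate block, and no member passed under any of these. With each library left out in turn they kept it too, except class II without cKO replicate 1, at -0.12. Over all genes 4 passed, 28 by DESeq2 and 0 with the replicate block, whose median over the members was 0.31; same-numbered libraries did not deviate together (r = -0.19, -0.26 and -0.12), so the numbers name libraries only. With each library left out in turn, 0 to 13 genes and 0 to 1 members passed. H2-DMb1 turned to 0.0066 with DESeq2 size factors, 0.037 with upper-quartile scaling and 0.013 with genes under a mean of 1 CPM left out. With 1 library left out the log2 fold change ranged from -0.071 to 0.90 for Cd74, -0.075 to 0.79 for H2-Ab1, -0.18 to 0.24 for H2-DMa, -0.26 to 0.35 for H2-DMb1, -0.17 to 1.10 for H2-DMb2, -0.28 to 0.92 for H2-Ob, -0.041 to 0.52 for H2-K2, -0.11 to 0.32 for H2-M3, -0.85 to 0.65 for H2-Q10, -0.056 to 0.40 for Psme1, -0.050 to 0.30 for Psme2, -0.16 to 0.26 for Tap2 and -0.080 to 0.17 for Tapbp. The cause was not tested. In choices made after seeing the data, the non-classical median was 0.39 over genes with under 20% of 50-base stretches shared, and 0.54 over genes of at least 1 CPM, where class II was at 0.44. Low counts limit H2-Q2, H2-Eb2, H2-M2, H2-M6-ps, H2-T-ps and H2-Ke6, which had too few to be tested. In H2-Ke6 1419 of 1643 exon bases overlap Gm20427 on the same strand, and 70.5% of its 50-base stretches are shared with that gene. How reads that fit both were counted is not known, so its low counts need not reflect depth.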
